A study of Mus musculus with 8 samples.

Results

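Tgfb1 and 9 other genes of suppressive mediators were followed in cells labelled as tumour dendritic cells (DCs), the antigen-presenting cells that prime or restrain T cells. The rule took the rows of the raw count table whose Ensembl IDs map to Tgfb1, Lgals9, Vsir, Il10, Entpd1, Arg1, Axl, Lilrb4a, Itgb8 and Vegfa. Of these 10 genes 7 had a row among the 10825 listed, and 6 of the 7 had enough counts to enter the test, which covered 6156 genes. Il10 was listed but too low to test, and Arg1, Lilrb4a and Itgb8 were not analysed here. The mice were wild type and all carried tumours of E0771, a mouse mammary carcinoma cell line. In 1 group they received DRQ, which the submitters describe as a CD74 inhibitor, and in the other PBS, a buffer, with treatment from day 10. Tumours were taken 3 weeks after injection and DCs were sorted from them. There were 4 libraries a group, and the labels do not tell single mice from pools. The spread that each p-value measures is that between these libraries and may be technical.

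The genes belong to different systems that hold immune responses down. TGF-β1, the product of Tgfb1, is secreted in a latent form, is released by integrins such as that containing the Itgb8 product, and signals through SMAD proteins to favour regulatory T cells and limit effector T cells. Il10 encodes an inhibitory cytokine. Lgals9 and Vsir encode galectin-9 and the checkpoint protein VISTA, which act on T cells. Entpd1 encodes CD39, which begins the breakdown of extracellular ATP towards adenosine, and Arg1 encodes an enzyme that consumes arginine. Axl and Lilrb4a encode receptors that dampen myeloid cell activation, and Vegfa encodes the main growth factor of blood vessels, which also hinders DC maturation.

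RNA was measured by a 3′-end method, so counts are not divided by transcript length, and levels are not compared between genes. Totals were 438648 to 539381 counts in the DRQ libraries and 361792 to 543892 in the PBS libraries. Levels of single genes are given as CPM, counts divided by library size, here scaled by edgeR's TMM factors. Marker sums are in CPM scaled by total counts alone. The limit that a count of 0 allows, 3 counts of the total, lay between 5.52 and 8.29 CPM and covers counting error only. Of 16 marker lists of cell types, 3 summed higher in all 4 DRQ than in all 4 PBS libraries. These were conventional DC markers (5524 to 6712 CPM in DRQ and 3267 to 4612 CPM in PBS), mature migratory DC markers (825 to 1258 CPM in DRQ and 357 to 669.7 CPM in PBS) and regulatory T cell markers (773 to 882 CPM in DRQ and 558 to 695 CPM in PBS). Each had exact permutation p = 0.0286, the smallest 4 against 4 libraries can give, and 0.152 after Benjamini-Hochberg adjustment over the 16 lists, so none passed. The conventional DC sum is mostly H2-Aa and H2-Ab1, which other antigen-presenting cells also transcribe. The regulatory T cell sum is mostly Tnfrsf18, with 222 to 291 counts in DRQ libraries and 150 to 276 in PBS libraries. Foxp3, on the same list, had 27 to 56 counts in DRQ libraries and 20 to 32 in PBS libraries. Flt3, a growth factor receptor of DCs, had 17 to 28 counts in DRQ libraries and 5 to 23 in PBS libraries. Itgax, also on the conventional DC list, had 68 to 118 counts in DRQ libraries and 58 to 127 in PBS libraries. Zbtb46, on the same list, had 1 to 12 and 0 to 1. These are raw counts, not scaled for library size. Xcr1 and Clec9a, which define type 1 DCs, were not analysed here. Natural killer (NK) cell markers were abundant throughout (10014 to 14802 CPM in DRQ and 11788 to 15378 CPM in PBS). T cell markers, all 10 counted in every library, summed to 2303 to 2591 CPM in DRQ and 1902 to 2659 CPM in PBS. In such bulk libraries fewer cells of a type and less RNA per cell cannot be told apart.

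**Figure D1:**
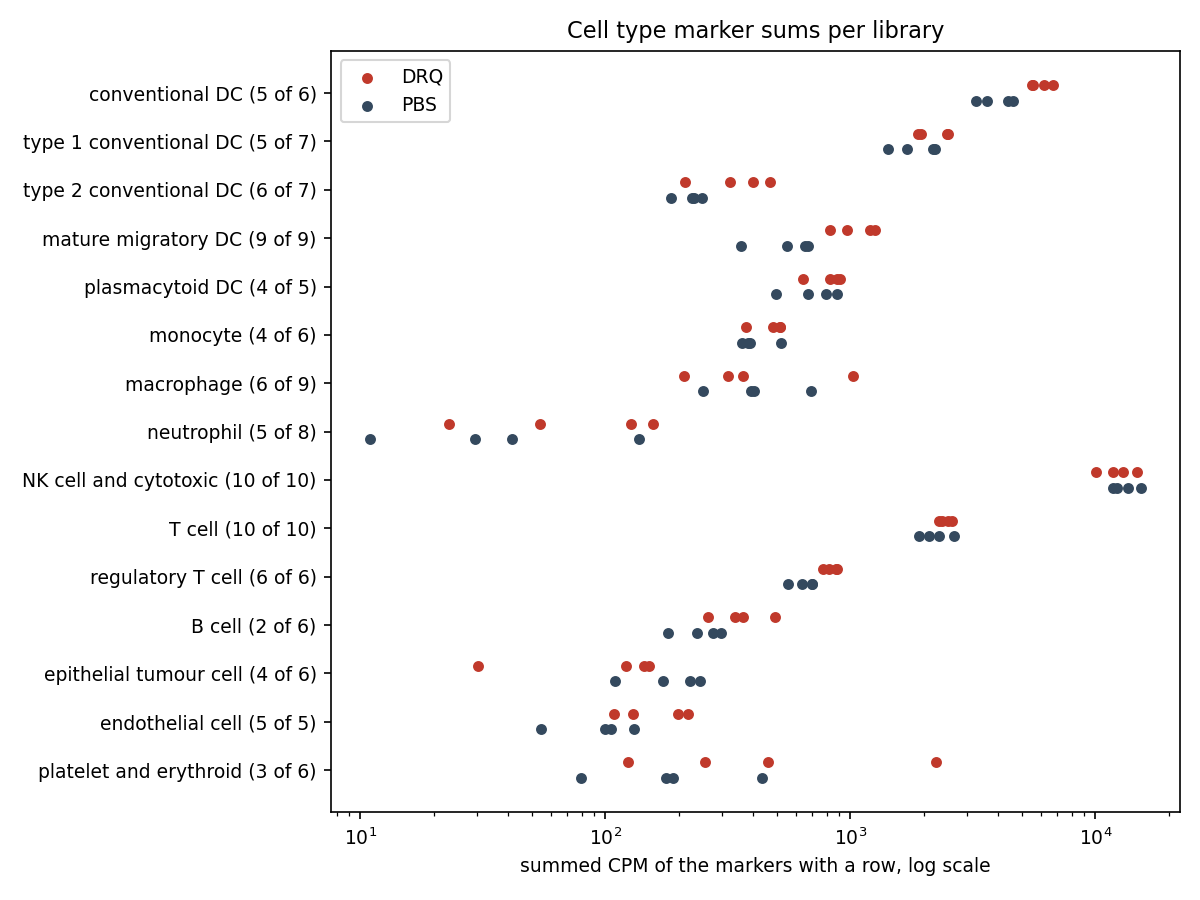
Summed CPM (log axis, scaled by total counts) of the markers of each cell type that had a row, in each DRQ library (red) and PBS library (dark). The number with a row and the number in the list stand beside each name, and fibroblast markers, with 0 of 6, are left out. The conventional DC, mature migratory DC and regulatory T cell sums of the groups do not overlap, and the platelet and erythroid sum of DRQ replicate 4 stands apart at 2238 CPM.

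Tgfb1 (ENSMUSG00000002603) was the member with the smallest p. It stood at 349, 326, 344 and 263 CPM in DRQ replicates 1 to 4 (180, 168, 150 and 144 counts), against 203, 154, 143 and 271 CPM in PBS replicates 1 to 4 (112, 58, 50 and 110 counts). DRQ libraries 1 to 3 lay above every PBS library, but the groups overlapped, since PBS replicate 4 lay just above DRQ replicate 4. The means were 320.5 ± 39.4 CPM in DRQ and 193 ± 58.1 CPM in PBS (SD, n = 4 each), and counting error alone is 7.45% to 14.1% of a library's value. The log2 fold change was 0.73 ± 0.19 (SE), a 1.65-fold difference with a 95% interval of 1.27 to 2.16. It did not pass over all genes (unadjusted p = 0.000648, rank 24 of 6156; BH-adjusted p = 0.166 in edgeR's quasi-likelihood model, where BH stands for the Benjamini-Hochberg method over all genes tested). Tgfb1 passed in 1 of 17 alternative fits, that without PBS replicate 4 (log2 fold change 0.93, edgeR BH-adjusted p = 0.0385), where 0.223% of 6731 genes passed. Over all 17 the BH-adjusted p ran from 0.0385 to 0.462.

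Of the 6 tested members 0 passed that test, which called 0.0325% of all genes tested. At an unadjusted p under 0.05 there were 2 of 6 (7.26% of all genes), Tgfb1 and Vegfa. Both were higher in DRQ, as were 3.98% of all genes, and 0 members were lower, as were 3.28%. Of the 6 estimates 4 lay above 0, and the median was 0.13, beside -0.01 over all genes tested, of which 48.4% lay above 0. For none of the 7 listed members were the groups fully apart, as they were for 4.3% of all genes tested. Tgfb1 was put on the list with its higher value in these libraries already known, so its place is no independent support.

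**Figure D2:**
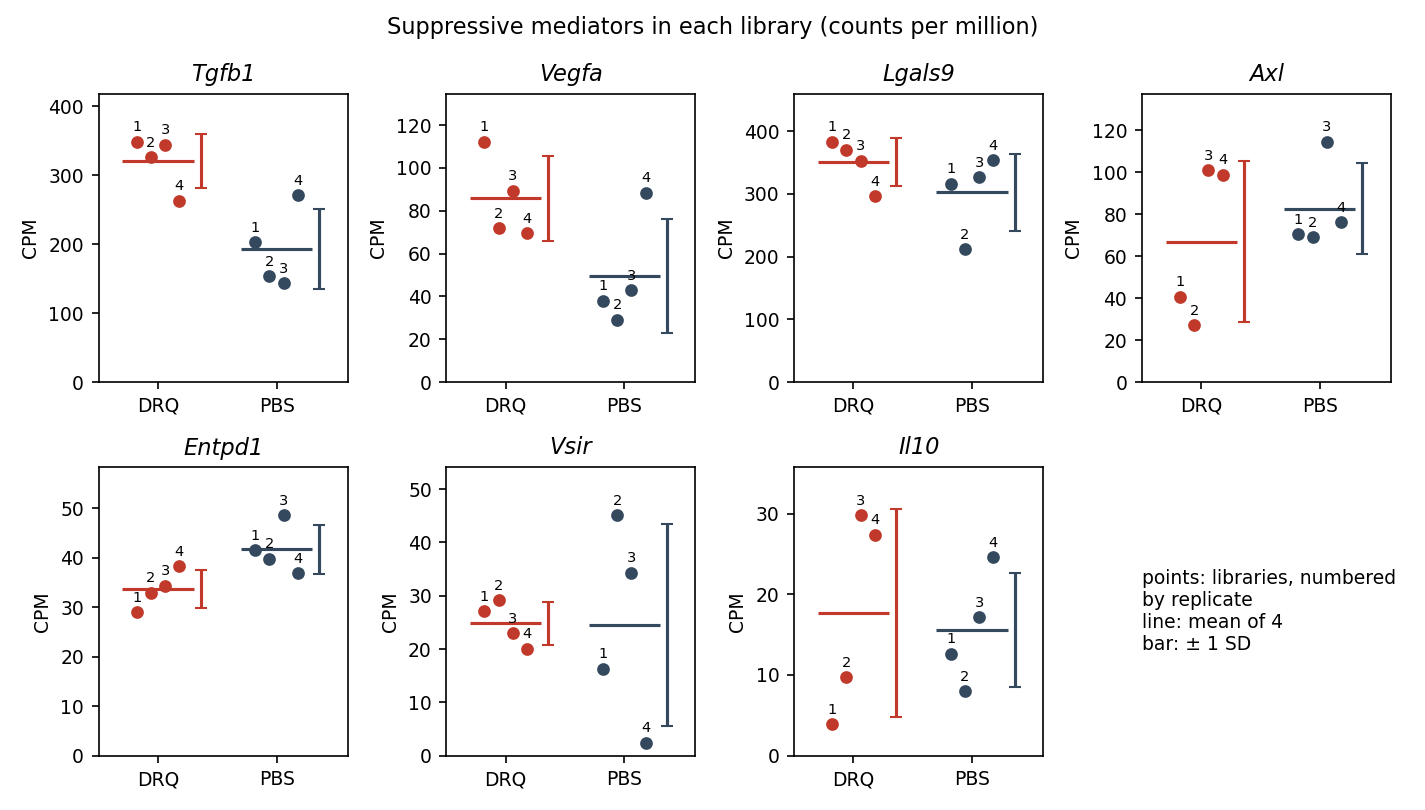
CPM (TMM-scaled) of the 7 listed mediators in each library, DRQ in red and PBS in dark, with replicate numbers, the mean of 4 (line) and ± 1 SD (bar). Tgfb1 averaged 320.5 CPM in DRQ and 193 CPM in PBS with PBS replicate 4 inside the DRQ range, and Axl and Il10 were low in DRQ replicates 1 and 2.

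Of the 15 genes of TGF-β ligands and activation 11 were listed and 8 tested, and 0 passed in either direction (median 0.14; 0.0325% of all genes passed). Tgfb3, another ligand, had 0 to 2 counts in DRQ libraries and 0 to 11 in PBS libraries. The metalloproteinase genes Mmp9 and Mmp14, whose products can release latent TGF-β, had estimates of -2.22 ± 1.06 and -1.44 ± 0.65 (SE). Mmp9 stood at 54.2, 42.7, 103 and 241 CPM in DRQ libraries, against 141, 1452, 406 and 98.4 CPM in PBS libraries, so PBS replicate 2 set most of its PBS mean. Without that library the estimates were -0.93 for Mmp9 and -0.72 for Mmp14. Lrrc32, which encodes GARP, the anchor of latent TGF-β on regulatory T cells, was at 0.76 ± 0.48. Nrros, which encodes a similar anchor of myeloid cells, was at 0.20 ± 0.24.

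Among 9 receptor and SMAD genes 6 were listed and 4 tested, with 0 passing. Smad3, a transcription factor that carries the TGF-β signal, stood at 27.1, 17.5, 13.8 and 21.9 CPM in DRQ libraries, against 41.6, 50.4, 42.9 and 63.9 CPM in PBS libraries. Its counts were low, at 14, 9, 6 and 12 in DRQ libraries and 23, 19, 15 and 26 in PBS libraries. All 4 DRQ libraries lay below all 4 PBS libraries, as for 2.18% of genes tested. Its log2 fold change of -1.28 ± 0.38 did not pass (edgeR BH-adjusted p = 0.297), with estimates from -1.45 to -1.14 over 17 alternatives. Acvrl1, which encodes the receptor ALK1, was at 0.95 ± 0.43 and Smad2, the partner of Smad3, at 0.18 ± 0.52. Smad2 had 1 count in PBS replicate 2, and its estimate was -0.16 without that library.

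Of 14 feedback and target genes 12 were listed and 7 tested; 6 estimates lay above 0, the median was 0.51 and 0 passed. Those with the smallest p were Tgif1, Smad7 and Ski. Estimates of the other genes tested were 0.80 ± 0.43 for Itgae, 0.26 ± 0.39 for Skil, 0.25 ± 0.24 for Tgfbi and -0.35 ± 0.31 for Klf10 (SE). Tgif1, a co-repressor of SMADs, averaged 95.1 ± 25.3 CPM in DRQ and 57.2 ± 11.9 CPM in PBS (0.75 ± 0.28). Smad7, the inhibitory SMAD that TGF-β itself induces, averaged 146 ± 34.9 CPM in DRQ and 102 ± 24.6 CPM in PBS (0.51 ± 0.24). Ski, another co-repressor, averaged 40.1 ± 12.3 CPM in DRQ and 22.5 ± 4.31 CPM in PBS (SD, n = 4). Its groups did not overlap, with DRQ higher, as for 2.13% of genes tested. It had 18, 18, 14 and 32 counts in DRQ libraries, against 15, 8, 6 and 10 in PBS libraries. The Ski estimate of 0.81 ± 0.39 (SE) was 0.57 without DRQ replicate 4. In edgeR the BH-adjusted p of Tgif1, Smad7 and Ski ran from 0.494 for Tgif1 to 0.678 for Ski. Many other signals also act on these genes, and RNA levels do not measure SMAD activity.

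Vegfa (ENSMUSG00000023951) stood at 112, 71.8, 89.5 and 69.4 CPM in DRQ libraries, against 38.0, 29.2, 42.9 and 88.5 CPM in PBS libraries. As for Tgfb1, PBS replicate 4 alone reached the DRQ range. The means were 85.8 ± 19.8 CPM in DRQ and 49.7 ± 26.5 CPM in PBS (SD, n = 4). The log2 fold change of 0.79 ± 0.32 (95% interval 0.13 to 1.44; 1.73-fold) did not pass (unadjusted p = 0.0200, edgeR BH-adjusted p = 0.577). It was 1.21 without PBS replicate 4 and 0.61 without PBS replicate 2, and passed in 0 of 17 alternatives. All 9 genes of the VEGF list, which includes Vegfa, were listed and 5 tested, with 3 estimates above 0, 2 below and 0 passing. The list median of 0.79 is the Vegfa estimate itself. Hif1a, which encodes the oxygen-sensitive activator of Vegfa transcription, stood at 54.2, 25.2, 64.2 and 47.5 CPM in DRQ libraries, against 25.3, 15.9, 25.8 and 17.2 CPM in PBS libraries (1.16 ± 0.40, edgeR BH-adjusted p = 0.413). DRQ replicate 2 lay within the PBS range of Hif1a. Vegfb, a related growth factor, was at -0.56 ± 0.32. Endothelial cell markers summed to 109 to 217 CPM in DRQ and 54.6 to 131 CPM in PBS, with 5 of 5 listed and 2 counted in every library. Their part in the VEGF values was not tested.

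**Figure D3:**
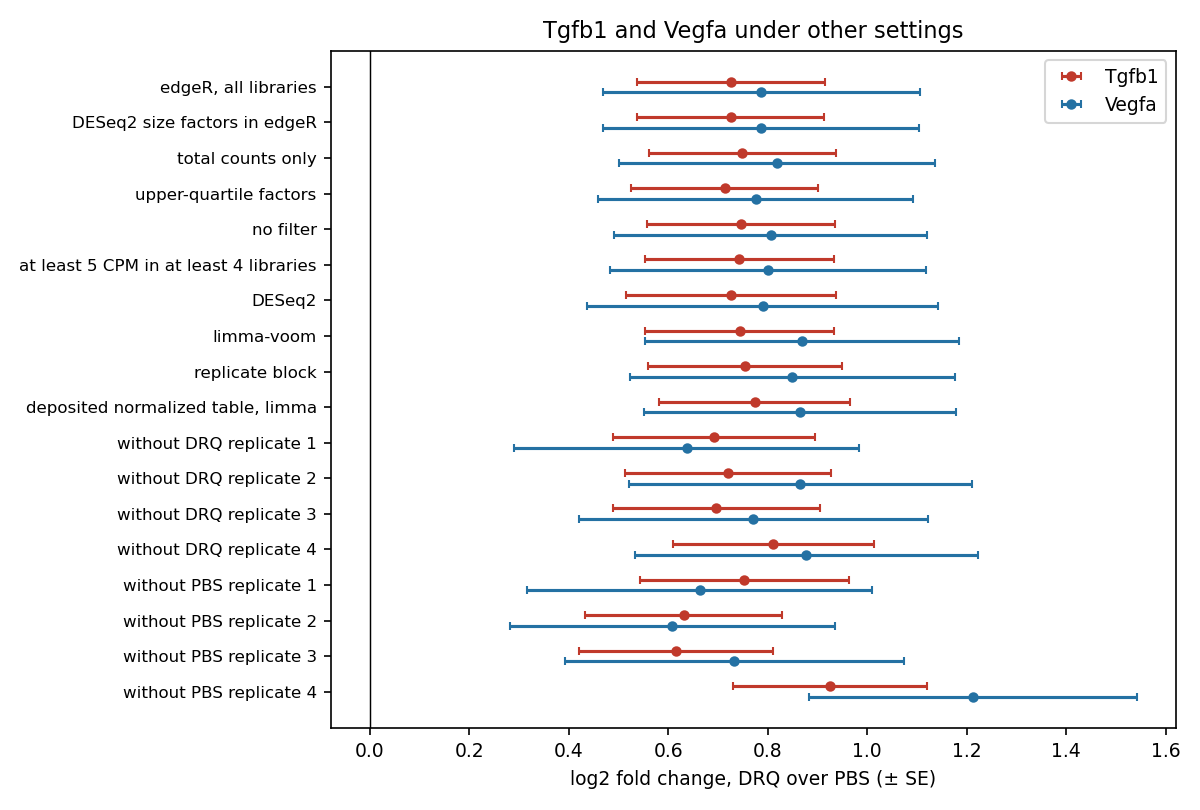
Log2 fold change of Tgfb1 (red) and Vegfa (blue), DRQ over PBS, with SE bars, in the edgeR fit of all libraries and in each of 17 alternatives. All estimates lie above 0, those of Tgfb1 between 0.62 and 0.93 and those of Vegfa between 0.61 and 1.21, with the highest of both without PBS replicate 4.

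For Tgfb1 and Vegfa, PBS replicate 4 was the highest PBS library and DRQ replicate 4 the lowest DRQ library. The same held for Lgals9, whose promoter window is not shown, and for the mature migratory DC marker sum. The promoter windows of Tgfb1 and Vegfa, the members with the smallest p, are shown. Each spans 250 bases before to 50 after the annotated start (RefSeq, GRCm38.p6), read 5′ to 3′ on the gene's strand, at chr7:25686752-25687051 on the plus strand for Tgfb1 and at chr17:46032328-46032627 on the minus strand for Vegfa, the entry of 2 nearest the annotated gene start. Capitals mark matches to the GC box GGGCGG on either strand.
Tgfb1: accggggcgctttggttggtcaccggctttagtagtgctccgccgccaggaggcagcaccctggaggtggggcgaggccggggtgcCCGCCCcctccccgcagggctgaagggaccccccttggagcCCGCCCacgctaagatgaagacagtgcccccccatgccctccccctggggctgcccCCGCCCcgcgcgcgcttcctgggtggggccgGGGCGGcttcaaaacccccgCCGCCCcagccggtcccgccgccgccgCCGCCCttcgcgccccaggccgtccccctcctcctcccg
Vegfa: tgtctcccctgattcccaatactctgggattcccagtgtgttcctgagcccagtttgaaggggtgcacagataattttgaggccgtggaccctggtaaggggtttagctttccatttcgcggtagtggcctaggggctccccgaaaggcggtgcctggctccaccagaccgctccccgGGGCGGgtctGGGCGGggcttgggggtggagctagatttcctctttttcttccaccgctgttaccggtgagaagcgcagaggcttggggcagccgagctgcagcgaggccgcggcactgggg

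The GC box, the motif of Sp1 family factors, had 6 matches in the Tgfb1 window and 2 in the Vegfa window, and 35.7% of 32851 windows of 300 bases in the same table held at least 1. G and C made up 77% of the Tgfb1 window and 62% of the Vegfa window, where the median of all windows was 52.7%. The AP-1 motif TGANTCA and the core ACGTG of hypoxia response elements, both read on either strand, had 0 matches in each window, while 7.81% and 19.6% of all windows held them. A match or its absence in these windows is a description of letters and says nothing of factor binding. None of the 3 motifs contains another.

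The genes most like Tgfb1 across the 8 libraries, by Pearson correlation of log2 CPM among 6063 other tested genes averaging at least 20 CPM, were Cxcl16, Arfgap2, Orai1, Dgat1 and Fscn1. Cxcl16 (a chemokine) had r = 0.96 (Spearman 0.93), Arfgap2 (a regulator of vesicle coats) 0.96 (0.93) and Orai1 (a calcium channel) 0.95 (0.93). Dgat1 (a triglyceride synthesis enzyme) had 0.95 (0.93) and Fscn1 (an actin-bundling protein of mature DCs) 0.94 (0.81). These were the highest of many correlations over 8 points that share libraries and fall in 2 groups, so no test applies. With the group means removed the 5 values were 0.84 to 0.90. Their own log2 fold changes ran from 0.46 ± 0.30 for Arfgap2 to 1.40 ± 0.35 for Cxcl16, with edgeR BH-adjusted p from 0.136 for Dgat1 to 0.802 for Arfgap2, and none passed. Without PBS replicate 4 Dgat1 passed (1.01, edgeR BH-adjusted p = 0.0281). Vegfa ranked 25 with r = 0.90, Lgals9 272 with 0.70, and Entpd1 6049 with -0.89. Fscn1 is itself on the mature migratory DC list. That list summed to 1202, 968, 1258 and 825 CPM in DRQ libraries, against 552, 357, 649.9 and 669.7 CPM in PBS libraries. DRQ replicate 4 was thus the lowest DRQ library and PBS replicate 4 the highest PBS library for this sum as for Tgfb1. The regulatory T cell sum, in contrast, was highest in DRQ replicate 4 and lowest in PBS replicate 4. The part of these cell types, and of conventional DCs, in the Tgfb1 values was not tested.

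**Figure D4:**
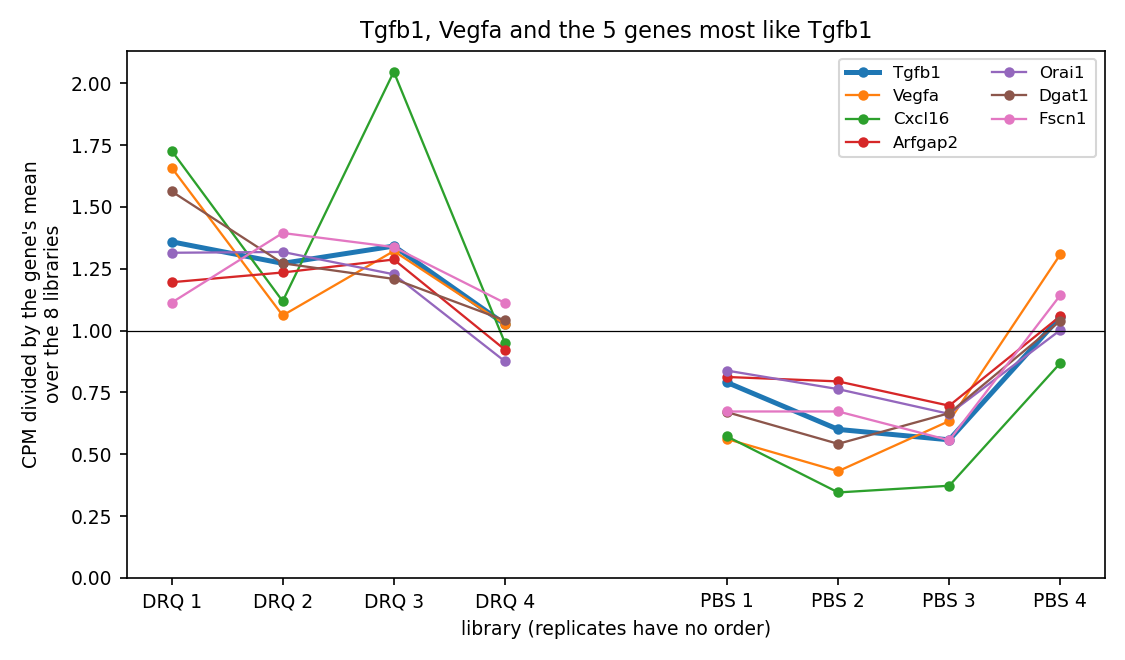
CPM of Tgfb1 (thick line), Vegfa and the 5 genes most like Tgfb1, each divided by its mean over the 8 libraries; DRQ libraries stand left and PBS libraries right, and the order of replicates carries no meaning. PBS replicate 4 is the highest PBS library for all 7 genes, and DRQ replicate 4 is the lowest DRQ library for all 7, for Fscn1 by little (132 CPM in both DRQ replicates 4 and 1).

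Lgals9 (ENSMUSG00000001123) was well counted and differed little. It stood at 383, 371, 353 and 296 CPM in DRQ libraries, against 317, 212, 326 and 354 CPM in PBS libraries. The groups overlapped between 296 and 354 CPM, and PBS replicate 2 was the lowest library. The log2 fold change was 0.21 ± 0.17 (edgeR BH-adjusted p = 0.837), with a 95% interval of 0.913 to 1.47 for the fold. It was 0.08 without PBS replicate 2. The galectin and VISTA partner list had 6 of 7 genes listed and tested, with a median of 0.06 and 0 passing. Havcr2, which encodes TIM-3, a receptor of galectin-9, was at 0.60 ± 0.46, and Lgals3, which encodes galectin-3, at -0.18 ± 0.14.

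Vsir (ENSMUSG00000020101) had 14, 15, 10 and 11 counts in DRQ libraries, against 9, 17, 12 and 1 in PBS libraries. The PBS libraries spanned the whole DRQ range, from 2.46 CPM in PBS replicate 4 to 45.1 CPM in PBS replicate 2. The log2 fold change was 0.05 ± 0.51 with a 95% interval of -0.99 to 1.09, which spans folds of 0.504 to 2.14. The estimate turned to -0.32 when PBS replicate 4 was left out, to -0.12 when PBS replicate 1 was, and to -0.03 when DRQ replicate 2 was. It grew to 0.52 when PBS replicate 2 was left out, so no direction can be given.

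Axl and Il10 split the DRQ libraries rather than the groups. Axl (ENSMUSG00000002602), a receptor tyrosine kinase of myeloid cells, stood at 40.7, 27.2, 101 and 98.7 CPM in DRQ libraries, against 70.6, 69.0, 114 and 76.2 CPM in PBS libraries. DRQ replicates 1 and 2 were below every PBS library, while DRQ replicates 3 and 4 were above all but PBS replicate 3. The mean difference was small against this spread (log2 fold change -0.30 ± 0.34, edgeR BH-adjusted p = 0.910). Leaving out DRQ replicate 2 gave -0.03, DRQ replicate 1 or PBS replicate 3 -0.11 each, and DRQ replicates 3 and 4 in turn -0.55 and -0.56. Of the other genes of its family, Tyro3 had 1 to 7 counts in DRQ and 1 to 6 in PBS, its ligand gene Gas6 had 2 to 8 in DRQ and 0 to 3 in PBS, and Mertk and Pros1 were not analysed here.

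Il10 (ENSMUSG00000016529) had 2, 5, 13 and 15 counts in DRQ libraries, against 7, 3, 6 and 10 counts in PBS libraries. The same DRQ replicates 1 and 2 were low, at 3.87 and 9.71 CPM, and DRQ replicates 3 and 4, at 29.8 and 27.4 CPM, were above every PBS library. Means were 17.7 ± 12.9 CPM in DRQ and 15.6 ± 7.08 CPM in PBS (SD, n = 4; exact 2-sided permutation p = 0.8, where 0.0286 is the smallest possible). Macrophage markers summed to 316, 209.9, 365 and 1027 CPM in DRQ libraries, against 391.6, 688, 404 and 251 CPM in PBS libraries, with 6 markers listed and 4 of them counted in every library. NK cell markers were likewise lower in DRQ replicates 1 and 2 (10014 and 11784 CPM) than in DRQ replicates 3 and 4 (14802 and 12985 CPM). So were monocyte markers (374 and 485, then 517 and 517 CPM; 359.7 to 522 CPM in PBS) and neutrophil markers (54.3 and 22.9, then 128 and 156 CPM; 10.9 to 137 CPM in PBS). The sums of 3 lists ran the other way. These were type 1 DC markers (2474 and 2512, then 1945 and 1891 CPM; 1427 to 2217 CPM in PBS), plasmacytoid DC markers (880.4 and 905, then 828 and 643 CPM; 495 to 885 CPM in PBS) and B cell markers (494 and 365, then 262 and 337 CPM; 180.2 to 296 CPM in PBS). Each of these sums is mostly 1 gene, Irf8, Bst2 and Ighm in turn, and 2 of 6 B cell markers had a row. On the type 1 DC list, Naaa (90, 76, 54 and 84 counts in DRQ libraries) and Batf3 (14, 34, 20 and 15) did not follow Irf8 in this split. The sums of the remaining marker lists did not part DRQ replicates 1 and 2 from DRQ replicates 3 and 4. That split was taken from the Axl and Il10 values, and 4 libraries can fall into such pairs by chance. The part of any of these cell types in the Axl and Il10 values was not tested. The 8 genes of the IL-10 list were all listed and 7 tested, with 0 passing. Stat3, the transcription factor that IL-10 receptors activate, stood at 807, 771, 528 and 481 CPM in DRQ libraries, against 373, 502, 527 and 573 CPM in PBS libraries (0.39 ± 0.17). It was highest in DRQ replicates 1 and 2, where Il10 was low. Tyk2, a receptor-associated kinase, was at -0.46 ± 0.24, and Socs3, a feedback inhibitor, at 0.24 ± 0.18.

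Entpd1 (ENSMUSG00000048120) stood at 29.0, 33.0, 34.4 and 38.4 CPM in DRQ libraries, against 41.6, 39.8, 48.7 and 36.9 CPM in PBS libraries. DRQ replicate 4 and PBS replicate 4 made the overlap, in the opposite sense to Tgfb1. The values rest on 15 to 23 counts a library. The log2 fold change was -0.30 ± 0.35 (edgeR BH-adjusted p = 0.910), a fold of 0.811 with a 95% interval of 0.496 to 1.33. Of 10 adenosine pathway genes 8 were listed and 3 tested, with 0 passing. Adora2a, which encodes an adenosine receptor through which adenosine inhibits immune cells, stood at 157, 109, 139.9 and 93.2 CPM in DRQ libraries, against 90.5, 71.7, 103 and 36.9 CPM in PBS libraries. DRQ replicate 4 lay within the PBS range. Its log2 fold change was 0.72 ± 0.27 (edgeR BH-adjusted p = 0.534). Nt5e, which encodes the adenosine-forming enzyme CD73, had 5 to 11 counts in DRQ and 1 to 11 in PBS. Slc29a1, which encodes a nucleoside transporter, was at -0.37 ± 0.33, and at 0.050 without PBS replicate 2.

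Arg1 was not analysed here, but 5 of the 10 arginine and amino acid genes were listed and tested, with 4 estimates above 0, 1 below and 0 passing. The list median of 0.53 is the Odc1 estimate itself. Odc1, which makes polyamines from the ornithine that arginase releases, averaged 275 ± 29.9 CPM in DRQ and 191 ± 29.6 CPM in PBS. Ass1, which rebuilds arginine from citrulline, averaged 144 ± 9.83 CPM in DRQ and 91.6 ± 20.7 CPM in PBS (SD, n = 4). For both the 4 DRQ libraries lay above the 4 PBS libraries, as for 2.13% of genes tested. On the log2 scale Odc1 differed by 0.53 ± 0.17 (edgeR BH-adjusted p = 0.351) and Ass1 by 0.64 ± 0.22 (edgeR BH-adjusted p = 0.439). Il4i1, an amino acid oxidase of mature DCs and on that marker list, was at 0.71 ± 0.27. The other genes tested were Slc7a1, at -0.40 ± 0.38, and Asl, at 0.10 ± 0.31 (SE).

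Lilrb4a shares 1846 exon bases with another annotated gene in GENCODE M21, and was not analysed here. Lilr4b, its neighbouring and closely similar paralog, was listed, and the sources used here do not give how reads were split between such copies. Lilr4b stood at 116, 115, 333 and 132 CPM in DRQ libraries, against 123, 45.1, 175 and 123 CPM in PBS libraries. DRQ replicate 3 was far above the rest, and the log2 fold change of 0.57 ± 0.47 was 0.06 without it. Pirb, another inhibitory receptor of myeloid cells, was at 0.56 ± 0.29 and Ptpn11, a phosphatase that such receptors recruit, at 0.91 ± 0.40. Of the 8 genes of this list 7 were listed and 6 tested, with 5 estimates above 0 and 0 passing.

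**Figure D5:**
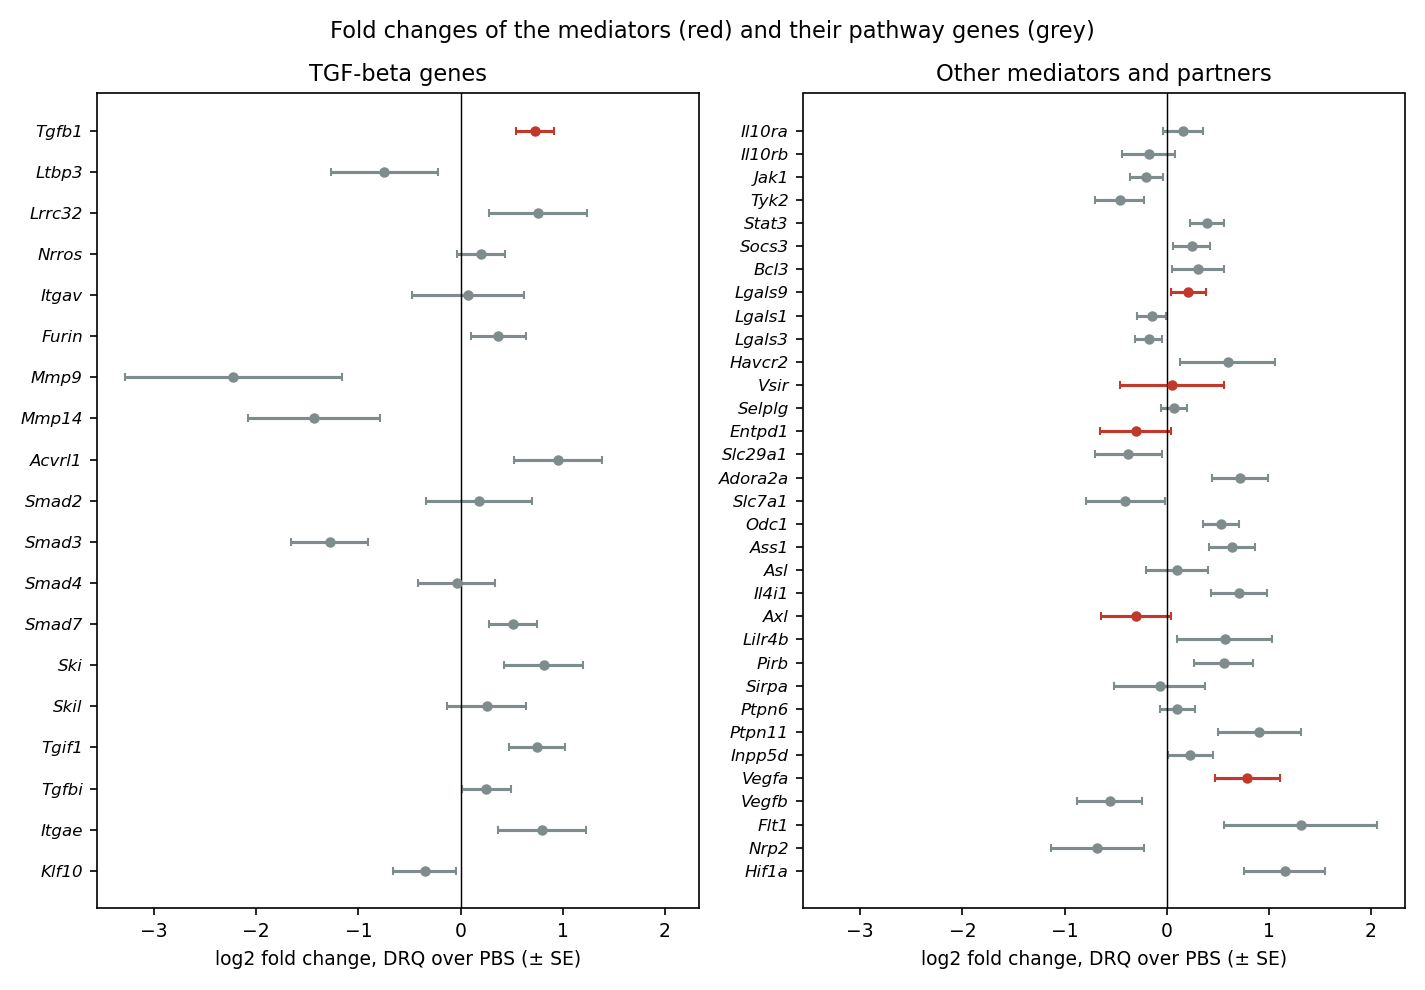
Log2 fold change, DRQ over PBS, with SE bars, of the tested mediators (red) and the tested genes of their pathways (grey), TGF-β genes at left and the other systems at right. No gene shown passed over all genes; Tgfb1 has the smallest p, and Smad3, at -1.28, the next.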

How the data were processed

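RNA of 8 libraries, 4 DRQ and 4 PBS, was, per the labels' protocols, read from 3′ ends by MARS-seq adapted to bulk samples, which tags molecules with identifiers (UMIs). The authors deposited raw counts per Ensembl gene, and a second table of signal values that are those counts divided by 1 size factor per library, as the values show. Per the submitters' processing notes the build was GRCm39 and the tools included STAR 2.7.3a, HTSeq, cutadapt, bcl2fastq 2.20.0.422, DESeq2 1.26.0 and DESeq. Whether UMIs were collapsed, the strand setting and the treatment of reads shared by gene copies are not given in the sources used here.

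IDs were named with GENCODE M21 (10788 of 10825 matched). After filterByExpr and TMM scaling, counts of 6156 genes were tested with edgeR 4.0.16 (R 4.3.3) by its robust quasi-likelihood F test. P-values were adjusted over all of them by the Benjamini-Hochberg method (BH), with a threshold of 0.05. The tested genes held 94.9% of counts, and the common biological coefficient of variation was 0.235. Marker sums were compared by exact 2-sided permutation of the libraries. Alternatives used DESeq2 1.42.0, limma 3.58.1, other scalings and filters, the deposited signal table as log2(value + 1), a replicate term, and each library left out. All 28 pairs of libraries differed by more than sampling noise (chi-square over its degrees of freedom 2.60 to 4.21).

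The members and all gene lists were chosen with earlier results of these data known. All members are named, then up to 3 tested genes of each pathway list by smallest unadjusted p, and the 5 genes most correlated with Tgfb1. Tgfb3, Lrrc32, Nrros, Itgae, Skil, Tgfbi, Klf10, Tyro3, Gas6, Nt5e, Slc7a1 and Asl fall outside this rule and were named after their values were seen. Single genes of the marker lists, such as Flt3, Foxp3, Itgax and Irf8, also fall outside it.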

Additional observations from a re-analysis of the deposited data

Results flagged for a closer look

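In 90 sets of 4 libraries, 5 held a library whose gap to its nearest neighbour, as a share of the range, exceeded Dixon's 95% value, where chance gives about 1 in 20. Axl was at 114 CPM in PBS replicate 3, above the other PBS libraries. Lilr4b was at 333 CPM in DRQ replicate 3 and Ski at 58.5 CPM in DRQ replicate 4, each above the other DRQ libraries. Ptpn11 was at 12.7 CPM in PBS replicate 1, below the other PBS libraries. Platelet and erythroid markers summed to 2238 CPM in DRQ replicate 4, against 124 to 462 CPM in the other DRQ libraries and 79.2 to 438 CPM in the PBS libraries, and Pf4, Ppbp and Gp9 were not analysed. DRQ replicate 4 was also the lowest DRQ library for Tgfb1, Vegfa and Lgals9.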

How the results depend on the processing

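Over all genes, 2 passed in the fit of all libraries, 7 with scaling by total counts, 8 with no filter, 15 by DESeq2, 4 by limma-voom and 6 with a replicate block. Leaving out 1 library gave 0 to 15 (0 without DRQ replicate 3 and 15 without PBS replicate 4). Members passing numbered 0, except 1 (Tgfb1) without PBS replicate 4, a range of 0 to 1. With the replicate block Tgfb1 was at 0.75 (edgeR BH-adjusted p = 0.146). Deviations of same-numbered libraries correlated by -0.01 to 0.08, and 2 of 4 DRQ libraries correlated best with their own number, so the numbers were not taken as pairs. Directions of Tgfb1, Vegfa, Lgals9, Axl and Entpd1 held in all 17 alternatives. Leaving out 1 library reversed Vsir (-0.32 to 0.52), Il10 (-0.19 to 0.52), Smad2 (-0.16 to 0.43) and Slc29a1 (-0.58 to 0.050); the cause was not tested. Of the marker lists 0 passed with TMM factors or with any 1 library left out. Among the members low counts limit Vsir, Il10 and Entpd1. Counts were similarly low for pathway genes such as Smad3, Hif1a, Ski and Acvrl1. Smad3 had 6 to 14 counts in DRQ libraries, Hif1a 13 to 28, Ski 14 to 32 and Acvrl1 15 to 18. In PBS libraries Smad3 had 15 to 26 counts, Hif1a 6 to 14, Ski 6 to 15 and Acvrl1 3 to 10.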
